A study of Mus musculus with 24 samples.

Results

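A set of 9 genes of replication-coupled chromatin and methylation was followed through the intestinal arrays: Dnmt1, Uhrf1, Hells, Ezh2, Suz12, Eed, Asf1b, Chaf1a and Chaf1b. The platform annotation named probe sets for 8 of the 9 listed members, 20 probe sets among 45101, and Chaf1a was not analysed here. Each gene was read from its brightest probe set, by the mean of the 24 arrays, and the other 12 served as a check. Crypts and villi of the small intestine were profiled on 3 arrays per group, in mice of a mixed C57BL/6;FVB strain background, 2 months old, taken 7 days after an intraperitoneal injection of beta-napthoflavone, which all groups had received. The 4 genotypes were wild type (WT), Rb-/- (Rb), E2f1-/-;E2f2-/-;E2f3-/- (TKO), and E2f1-/-;E2f2-/-;E2f3-/-;Rb-/- (QKO). The labels name no Cre driver, so which cells lost each allele is not known from the sources used here, and nothing in them ties arrays to single mice. The p-values then measure the spread between these arrays, which may be technical where the arrays of a group share a sex, and in part elsewhere.

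Crypts hold the dividing cells of the intestinal epithelium, and villi hold the differentiated cells that have left the cycle. When DNA is copied, each new strand lacks methylation and part of its nucleosomes, and both must be restored before the next division. Uhrf1 binds hemimethylated CpG sites and brings in Dnmt1, the maintenance methyltransferase, while Hells is a chromatin remodeller that opens nucleosomal DNA to methylation. Ezh2, Suz12 and Eed form the core of Polycomb repressive complex 2 (PRC2), in which Ezh2 methylates lysine 27 of histone H3, Suz12 holds the complex together and Eed binds the mark already in place. Asf1b hands newly made histones H3 and H4 to chromatin assembly factor 1, whose subunits include Chaf1a and Chaf1b. Many genes of DNA replication are known targets of E2f factors, which Rb binds and restrains.

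Because the genotypes remove E2f factors, the RefSeq promoter windows of the members (build GRCm38.p6, from 250 bases before to 50 bases after a listed start, 12 windows for the 9 members) were searched for the 8-base E2f forms TTTCCCGC, TTTCGCGC, TTTGCCGC and TTTGGCGC on both strands. A form was present in 5 of the 12 windows, which belong to 5 of the 9 members, and in 2.26% of all 32851 windows. Suz12 and Hells held the first form, Uhrf1 and Dnmt1 the second, and Ezh2 and a second place in Dnmt1 the fourth. The stretches are shown 5′ to 3′ on the strand of the gene, with the E2f form in capitals, at -62 from the start in Hells (chr19:38930740-38930989, plus strand, the 250 bases before the start), -185 in Uhrf1 (chr17:56304117-56304146, plus strand), -219 in Dnmt1 (chr9:20952824-20952853, minus strand), +4 in Ezh2 (chr6:47595009-47595038, minus strand) and -219 in Suz12 (chr11:79992876-79992905, plus strand).
Hells: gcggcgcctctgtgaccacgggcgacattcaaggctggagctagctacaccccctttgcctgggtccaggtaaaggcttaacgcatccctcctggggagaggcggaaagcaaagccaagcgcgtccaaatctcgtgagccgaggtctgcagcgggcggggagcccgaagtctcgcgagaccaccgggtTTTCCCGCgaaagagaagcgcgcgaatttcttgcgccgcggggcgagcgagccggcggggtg
Uhrf1: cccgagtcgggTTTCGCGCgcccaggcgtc
Dnmt1: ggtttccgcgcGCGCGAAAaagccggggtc
Ezh2: gggttgctgcgTTTGGCGCtcggtccggtc
Suz12: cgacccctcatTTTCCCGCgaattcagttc
No such form was found in the windows of Eed, Asf1b, Chaf1a and Chaf1b. Asf1b is shown for comparison because its level ran with that of Ezh2 and, in crypts, against that of Hells (chr8:83955444-83955693, plus strand, the 250 bases before the start), with CCAAT and TTTGAA, searched on both strands, in capitals.
Asf1b: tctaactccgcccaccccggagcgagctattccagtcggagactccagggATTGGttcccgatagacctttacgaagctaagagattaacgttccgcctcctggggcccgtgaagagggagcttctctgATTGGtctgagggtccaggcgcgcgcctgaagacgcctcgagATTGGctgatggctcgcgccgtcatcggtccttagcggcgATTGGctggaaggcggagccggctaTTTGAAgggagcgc
This window holds CCAAT in 4 places and TTTGAA, the form known as the cell cycle genes homology region, at -14. CCAAT was found in a window of 7 of the 9 members and in 37.4% of all windows, and TTTGAA in 4 of the 9 and in 17.9%. These member counts are by gene and the shares by window, so they are not like for like. These matches describe the letters of the windows and say nothing about binding.

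The targeted genes were read first. Rb1 read 10.70 to 10.93 log2 in WT villi against 8.84 to 9.36 in Rb villi and 8.28 to 8.77 in QKO villi. In crypts Rb1 was at 8.46 on the array labelled WT crypts 3, with 10.31 and 10.59 on the other two, and at 10.25 on the one labelled Rb crypts 2, with 8.23 and 8.87 on the other two. Both go against their labels, and the tests of members and lists in crypts are also given without them. The brightest E2f2 probe set read 7.94 to 8.52 in the E2f-lost crypts and 9.0 to 9.59 in the others, and 1 of 3 E2f1 probe sets read 6.49 to 6.95 against 6.98 to 7.53, while the other two overlapped. In villi neither lay below all WT arrays in both genotypes: E2f2 read 7.74 to 8.08 in TKO and 7.12 to 7.45 in QKO against 7.24 to 8.10 in WT and 8.88 to 8.93 in Rb villi, and the same E2f1 probe set read 6.69 to 6.73 in TKO and 6.26 to 6.76 in QKO against 5.44 to 5.98 in WT villi. The E2f3 probe sets overlapped between the crypts, and the sources used here do not say which exons were deleted. Array medians lay between 4.97 and 5.26 log2. Poly-A control spots, which report sample preparation, averaged 5.44 to 7.13 on the 12 arrays with E2f1 to E2f3 present and 9.70 to 11.89 on the 12 arrays without them, so preparation and loss of the E2f genes cannot be told apart. Rb and WT arrays lie within the first range and QKO and TKO arrays within the second, in which QKO villi, at 11.28 to 11.89, exceeded TKO villi, at 10.52 to 10.77. From the Y-linked gene Eif2s3y, WT and Rb crypt arrays came from females, QKO arrays from males, and TKO and Rb villus arrays from both. TKO crypts, TKO villi and Rb villi therefore each hold arrays of different mice.

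In WT intestine all 8 measured members were lower in villi than in crypts, against 18.6% of all 18193 genes tested (limma, Benjamini-Hochberg adjusted p under 0.05, the call used throughout). Uhrf1 read 9.73, 9.71 and 10.04 log2 in WT crypts and 6.78, 6.90 and 6.31 in WT villi, a difference of -3.17 ± 0.24 (SE; 8.98-fold, adjusted p = 6.8e-09). Dnmt1, its partner enzyme, read 9.43, 9.55 and 9.97 in crypts and 7.59, 7.36 and 7.36 in villi, a difference of -2.22 ± 0.19. Hells read 9.64, 9.62 and 9.88 in crypts and 7.28, 7.22 and 6.87 in villi, a difference of -2.59 ± 0.19. Hybridization controls averaged 10.81 to 11.16 in WT crypts and 10.23 to 10.47 in WT villi, and the part of this step in the members' differences was not tested. The 3 genes of maintenance methylation showed the widest spans between the compartments. Both assembly factors followed: Asf1b read 9.04, 8.92 and 9.62 in crypts and 7.36, 7.36 and 6.95 in villi, a difference of -1.97 ± 0.22. Chaf1b read 8.24, 7.95 and 8.30 in crypts and 6.30, 6.22 and 5.92 in villi, a difference of -2.01 ± 0.18.

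The PRC2 core had the smaller spans. Ezh2, its enzyme, read 9.37, 9.55 and 9.89 in WT crypts and 8.09, 8.16 and 7.88 in WT villi, a difference of -1.56 ± 0.16 (adjusted p = 2.2e-07). Suz12 read 9.57, 9.49 and 9.86 in crypts and 8.90, 8.91 and 8.62 in villi, a difference of -0.83 ± 0.18 (adjusted p = 0.00084). Eed, the reader of the mark, read 10.04, 10.07 and 10.20 in crypts and 9.28, 9.25 and 9.16 in villi, a difference of -0.87 ± 0.11. No member overlapped between the compartments, a trait whose share over all genes was not counted. The median difference of the members was -1.99 against 0.08 for all genes. The 6 check probe sets with a mean above the median gene value of 6.39 log2 were all lower in villi too, and all 6 were called. Averaging all probe sets of Suz12, 3 of which are dim, brought its difference to -0.23, which was not called. Centring each array on its median moved the median of all genes in this comparison from 0.08 to 0.24, and 8 members were still called. Without the doubtful arrays all 8 were called too, from -0.72 ± 0.19 for Suz12 to -3.06 ± 0.28 for Uhrf1.

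**Figure D1:**
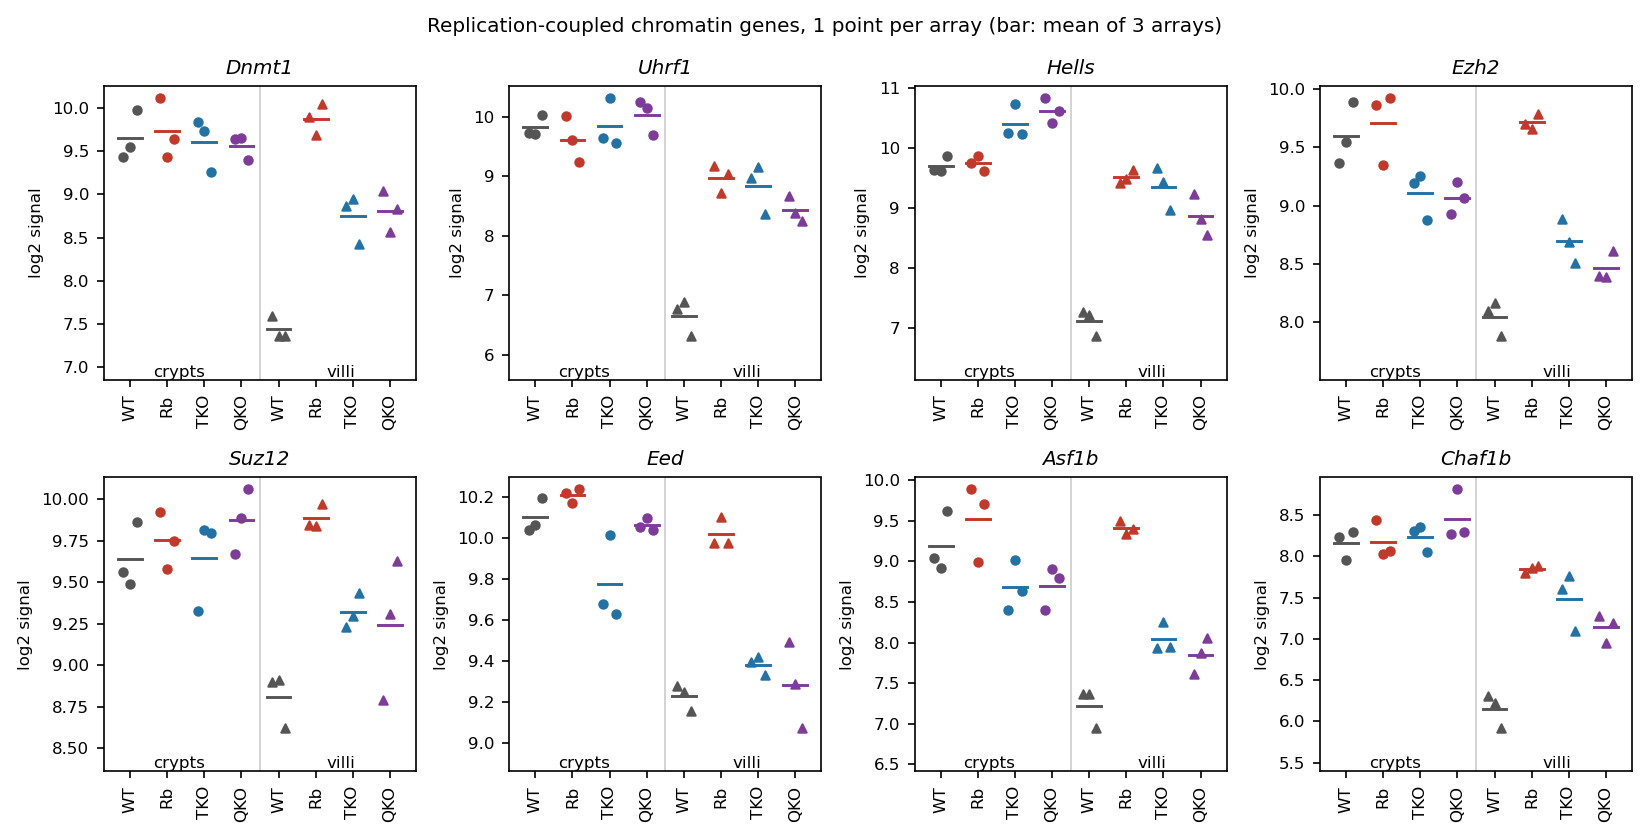
Level of each measured member (log2 signal, vertical axis, own scale per gene) on the 24 arrays by genotype, crypts as circles on the left and villi as triangles on the right of each panel, with bars at the mean of 3 arrays. All members are lowest in WT villi. For most members the Rb villus arrays sit near the crypt arrays, as for Dnmt1 at 9.69 to 10.05 against 7.36 to 7.59 in WT villi. Those of Uhrf1, at 8.72 to 9.18, and Chaf1b, at 7.79 to 7.89, lie below all crypt arrays, the lowest at 9.24 and 7.95.

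In villi without Rb all 8 members were higher than in WT villi, against 8.59% of all genes. No array of one group overlapped the other for any member, and the share of all genes without overlap was not counted. Dnmt1 read 9.90, 9.69 and 10.05 log2 in Rb villi, which is 2.44 ± 0.19 above WT villi (5.43-fold, adjusted p = 2.7e-08). Hells read 9.42, 9.49 and 9.65, and its difference was 2.40 ± 0.19. Uhrf1 read 9.18, 8.72 and 9.04, and its difference was 2.32 ± 0.24 (4.99-fold). Of the log2 distance from WT villi to WT crypts, Rb villi covered 73.2% for Uhrf1, 92.6% for Hells and 110.1% for Dnmt1. Without the array labelled WT crypts 3 these shares were 75.8%, 95.6% and 118.7%. The second Uhrf1 probe set was higher by 1.96 ± 0.22 in Rb than in WT villi. Its difference between WT villi and WT crypts was -3.46 ± 0.22.

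Of the assembly factors, Asf1b read 9.49, 9.34 and 9.40 log2 in Rb villi and differed from WT villi by 2.19 ± 0.22 (4.55-fold, adjusted p = 4.8e-07). Chaf1b read 7.79, 7.86 and 7.89 and differed by 1.70 ± 0.18. Ezh2 read 9.70, 9.66 and 9.78 and differed by 1.67 ± 0.16 (3.18-fold, adjusted p = 2e-07). Ezh2 and Asf1b in Rb villi lay within the WT crypt range only through the doubtful array WT crypts 3. They lay above WT crypts 1 and 2, at 9.37 and 9.55 for Ezh2 and 9.04 and 8.92 for Asf1b. The PRC2 partners of Ezh2 moved less on the log2 scale. Suz12 read 9.85, 9.84 and 9.97, a difference of 1.08 ± 0.18 (adjusted p = 0.00018). Eed read 9.98, 10.10 and 9.98, a difference of 0.79 ± 0.11 (adjusted p = 3.1e-05). Suz12 reached 130.0% of the WT distance and Eed 90.5%, or 150.3% and 95.7% without WT crypts 3. All 6 bright check probe sets were called higher as well.

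Within the Rb genotype the fall from crypts to villi was not called for any of the 8 members, where 17.3% of all genes were called in either direction, and 1 member, Uhrf1, had an unadjusted p under 0.05. The differences ran from -0.64 ± 0.24 for Uhrf1 (adjusted p = 0.073) through 0.01 ± 0.16 for Ezh2 to 0.15 ± 0.19 for Dnmt1, and their median was -0.16. Without the doubtful arrays the count was again 0, with differences from -0.64 ± 0.28 for Uhrf1 to 0.05 ± 0.19 for Suz12. The second Uhrf1 probe set was lower in Rb villi than in Rb crypts, at -1.48 ± 0.22 log2 (adjusted p = 0.00032 over all probe sets). Dim Suz12 probe sets were called higher there, at 0.56 ± 0.14 and 1.16 ± 0.25. Without the doubtful arrays they came to 0.44, not called, and 1.11, called. Leaving out the array labelled Rb crypts 3 brought the main Uhrf1 probe set to a call, at -0.83, and over all settings its adjusted p ran from 0.0033 to 0.31.

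Grouped by their labels, Rb crypts and WT crypts did not separate. None of the 8 members was called, nor was any of the 18193 genes (0.0%) by limma, although 709 genes had an unadjusted p under 0.05, none of them a member. Differences of Rb from WT crypts ran from -0.21 ± 0.24 for Uhrf1 to 0.34 ± 0.22 for Asf1b, with a median of 0.09. Both doubtful arrays stand in this comparison, so the lack of calls cannot show whether loss of Rb changed the members in crypts. Without them Asf1b differed by 0.82 ± 0.21 and Ezh2 by 0.44 ± 0.16, which limma did not call, with adjusted p-values over all settings from 0.16 to 1 for Asf1b and from 0.36 to 1 for Ezh2.

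The gain in Rb villi exceeded that in crypts for all 8 members when the difference itself was tested, against 4.12% of all genes. Without the pair of doubtful crypt arrays, 6 of the 8 kept that call: Suz12 came to 0.77 ± 0.28 and Eed to 0.61 ± 0.18, with adjusted p-values over all settings of 0.0069 to 0.13 and 0.0018 to 0.17. The Suz12 call was also lost without Rb crypts 3 (0.96), WT villi 3 (0.87) or Rb villi 3 (0.92). In bulk arrays, more cells of a type and more RNA per cell cannot be told apart, whatever the gene. Markers of crypt cells were read beside it. Of 9 stem cell markers, 1 was called higher in Rb villi, a share near the 8.59% of all genes. It was Cdca7, which is also counted among the DNA methylation genes. The mean of the 9 read 7.21 to 7.38 log2 in Rb villi, 6.91 to 7.11 in WT villi and 8.46 to 9.17 in WT crypts. Of 5 Paneth cell and 11 enterocyte markers 0 were called (limma), 0 and 2 had an unadjusted p under 0.05, and list means were 11.87 to 12.48 and 13.69 to 13.85 in Rb villi against 11.59 to 12.39 and 13.89 to 14 in WT villi. The part of these cells in the members' gain was not tested.

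Loss of E2f1, E2f2 and E2f3 also went with higher levels in villi, in 6 of the 8 members against 6.21% of all genes. Hells read 9.67, 9.44 and 8.98 log2 in TKO villi, 2.24 ± 0.19 above WT villi (4.73-fold, adjusted p = 1.3e-07). Uhrf1 read 8.97, 9.17 and 8.38, a difference of 2.17 ± 0.24 (4.52-fold, adjusted p = 4.9e-06). Dnmt1 read 8.87, 8.95 and 8.42, a difference of 1.31 ± 0.19 (2.48-fold). Hells and Uhrf1 overlapped their Rb villus arrays, while Dnmt1 lay below all 3 of its own. Chaf1b read 7.60, 7.76 and 7.09 in TKO villi, a difference of 1.34 ± 0.18, and Asf1b read 7.94, 8.25 and 7.95, a difference of 0.82 ± 0.22 (adjusted p = 0.02). Ezh2 read 8.89, 8.69 and 8.51, a difference of 0.65 ± 0.16 (adjusted p = 0.011). Calls for Asf1b and Ezh2 were thinner than the rest: leaving out WT villi 3 gave 0.69 and 0.56, TKO villi 2 gave 0.72 for Asf1b and TKO villi 1 gave 0.55 for Ezh2, none of them called, and with sex as a covariate Asf1b came to 0.67, not called. Suz12 at 0.51 ± 0.18 (adjusted p = 0.074, and 0.019 to 0.36 over all settings, with a call by 4 of them, the replicate block among them) and Eed at 0.15 ± 0.11 (adjusted p = 0.48) were not called. The median of the members was 1.07 and that of all genes -0.03.

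In QKO villi, which lack Rb as well, 4 of the 8 members were higher than in WT villi, against 11.6% of all genes. They were Dnmt1 at 9.04, 8.57 and 8.83 log2 with a difference of 1.37 ± 0.19, Uhrf1 at 8.67, 8.38 and 8.25 with 1.77 ± 0.24, Hells at 9.24, 8.83 and 8.56 with 1.76 ± 0.19, and Chaf1b at 7.28, 6.95 and 7.19 with 0.99 ± 0.18. Without QKO villi 1 Suz12 (0.66, adjusted p = 0.011) and Asf1b (0.74, adjusted p = 0.048) were called as well, which makes 6. Ezh2 at 8.40, 8.38 and 8.61 and Asf1b at 7.62, 7.88 and 8.06 lay above all WT villus arrays but were not called, with differences of 0.42 ± 0.16 (adjusted p = 0.077) and 0.63 ± 0.22 (adjusted p = 0.058). Suz12 and Eed overlapped WT villi, with differences of 0.43 ± 0.18 and 0.06 ± 0.11. Both the Rb and the TKO comparison with WT villi share these 3 WT arrays with the QKO comparison. Some markers of other cell types differed in this comparison. Of 8 T cell markers 2 (Cd3e and Itgae) were higher in QKO than in WT villi, against 11.6% of all genes higher. Of 6 stroma markers 1 (Vim) was higher, a share near that of all genes. Of 6 goblet cell markers 2 were lower, against 5.21% of all genes lower. List means were 9.29 to 10.03 log2 against 8.48 to 8.87 in WT villi for T cells, 6.01 to 7.45 against 5.54 to 5.77 for stroma, and 11.6 to 12.08 against 12.14 to 12.26 for goblet cells. Their part in the members' differences was not tested.

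On the log2 distance from WT villi to WT crypts, TKO villi reached 86.4% for Hells, 68.7% for Uhrf1, 66.4% for Chaf1b, 61.6% for Suz12 and 59.0% for Dnmt1. They reached 41.8% for Asf1b, 41.7% for Ezh2 and 17.5% for Eed. In QKO villi the shares ran from 6.4% for Eed, 26.9% for Ezh2 and 31.8% for Asf1b to 67.7% for Hells, with Suz12 at 52.2%. In both E2f-lost genotypes Ezh2, Asf1b and Eed covered the least of the distance, an order that no test was run on. Without the array labelled WT crypts 3 they were again the lowest, at 18.5% to 46.9% in TKO and 6.7% to 35.7% in QKO, and the other members lay at 63.6% to 89.2% and 50.9% to 70%.

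**Figure D2:**
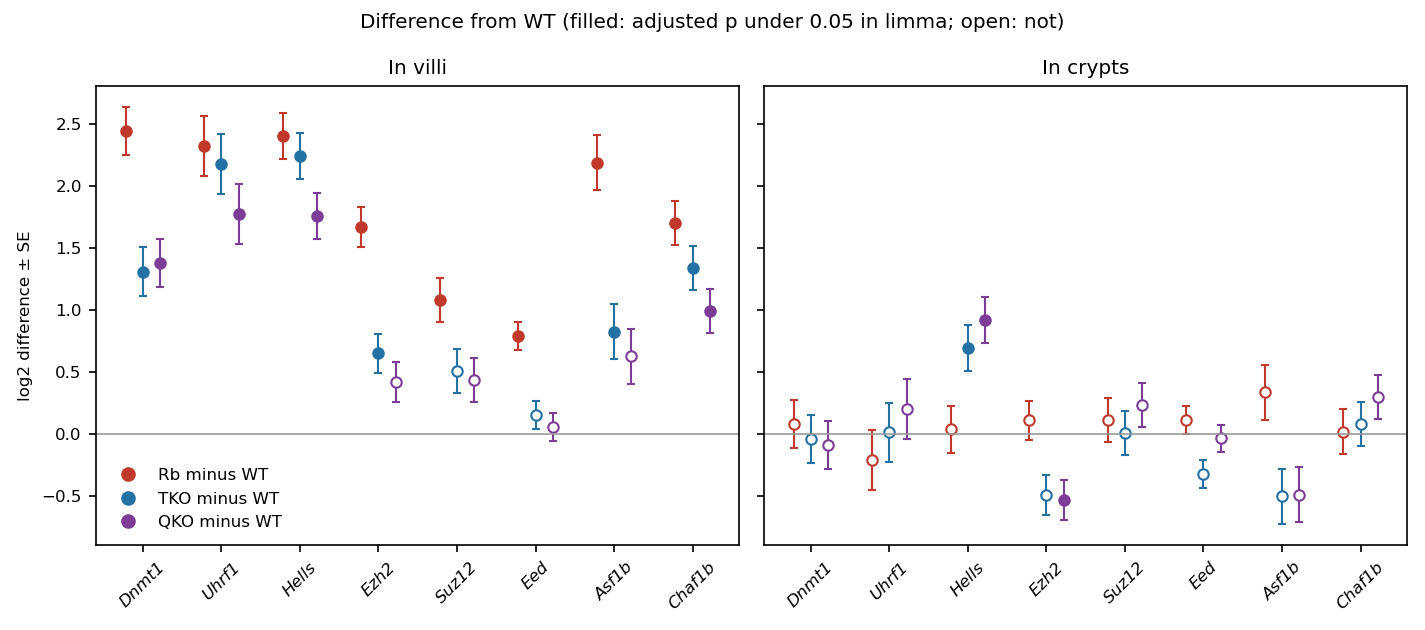
Difference of Rb, TKO and QKO from WT (log2 ± SE, vertical axis) for each member in villi on the left and in crypts on the right, 3 arrays per group, with filled points called by limma and open points not. In villi all 8 members are filled for Rb, 6 for TKO and 4 for QKO, while in crypts Hells is filled for TKO and QKO and Ezh2 for QKO.

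The compartments within the E2f-lost genotypes still differed. In TKO 5 of the 8 members were lower in villi than in crypts, against 8.99% of all genes: Hells by a difference of -1.05, Uhrf1 of -1.0, Dnmt1 of -0.86, Chaf1b of -0.75 and Eed of -0.39. Ezh2 at -0.42, Suz12 at -0.33 and Asf1b at -0.64 were not called. This count rests on few arrays, since it was 1 without TKO villi 3 and 2 without TKO crypts 2, while Asf1b was called without TKO crypts 1 (-0.78) and Ezh2 without TKO crypts 3 (-0.53). In QKO all 8 were lower in villi, against 19.9% of all genes, from -0.60 for Ezh2 to -1.75 for Hells (adjusted p = 2.7e-06), where Suz12, at -0.63, was not called without QKO villi 1 (-0.40). Crypt and villus arrays of the same number deviated together in TKO and QKO, and with the number as a block 6 members were called in TKO and 8 in QKO. Tested directly, the TKO difference from WT was larger in villi than in crypts for 6 members, against 2.69% of all genes, leaving Suz12 and Eed. Among the 6, Asf1b lost its call, at 1.12 to 1.30, without WT crypts 3, TKO crypts 1, TKO crypts 3, WT villi 3 or TKO villi 2, and Eed was called, at 0.6, without TKO crypts 2. The QKO difference was larger in villi for 4, Dnmt1, Uhrf1, Ezh2 and Asf1b, against 2.87% of all genes, and this count was 2 without WT villi 3, where Ezh2 and Asf1b lost their calls. Asf1b lost it, at 0.91 to 1.20, without most single arrays of these groups, the exceptions being WT crypts 2, QKO crypts 2 and QKO villi 1. Hells, at 0.84 ± 0.27, was not among the 4, but was called with the replicate number as a block (adjusted p = 0.042), with dim genes removed (0.049) and without QKO villi 3 (1.0), as Chaf1b was without QKO crypts 2 (0.87). Without the doubtful arrays the counts were 6 in TKO and 3 in QKO.

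In crypts the members parted. Hells read 10.25, 10.74 and 10.24 log2 in TKO crypts and 10.84, 10.42 and 10.62 in QKO crypts, against 9.64, 9.62 and 9.88 in WT and 9.76, 9.87 and 9.62 in Rb crypts. Ezh2 went the other way, at 9.20, 9.25 and 8.88 in TKO and 8.93, 9.20 and 9.06 in QKO crypts, against 9.37, 9.55 and 9.89 in WT and 9.86, 9.34 and 9.92 in Rb crypts. Thus all 6 E2f-lost crypt arrays lay above the 6 others for Hells and below them for Ezh2, with or without the doubtful arrays. Asf1b read 8.40, 9.02 and 8.64 in TKO, 8.40, 8.91 and 8.79 in QKO, and 9.89, 8.99 and 9.71 in Rb crypts. Its E2f-lost arrays, at 8.40 to 9.02, overlapped the others, at 8.92 to 9.89. The same 6 against 6 arrays overlapped for Dnmt1, Uhrf1, Suz12, Eed and Chaf1b. How many of all genes part these arrays was not counted.

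Against WT crypts, Hells was the only member called in TKO, higher by 0.69 ± 0.19 (1.62-fold, adjusted p = 0.036), where 1.93% of all genes were called higher. That call was lost when any 1 of the 6 arrays compared was left out (0.53 without TKO crypts 2, and 0.65 to 0.78 otherwise) and without both doubtful arrays (0.78), with adjusted p-values over all settings from 0.012 to 0.14. Ezh2 differed by -0.49 ± 0.16 (adjusted p = 0.078), Asf1b by -0.51 ± 0.22 and Eed by -0.33 ± 0.11 in TKO, none called, although Eed was without TKO crypts 2 (-0.45, adjusted p = 0.027). In QKO crypts Hells was higher by 0.92 ± 0.19 (1.89-fold, adjusted p = 0.0027), where 10.3% of all genes were called higher, and Ezh2 lower, at -0.54 ± 0.16 (adjusted p = 0.03), where 3.06% were called lower. The Ezh2 call was lost without WT crypts 2, WT crypts 3, QKO crypts 1 or QKO crypts 3 in turn, and came to -0.39 ± 0.14 without both doubtful arrays, with adjusted p-values over all settings from 0.0052 to 0.27. The Hells call in QKO crypts held under every setting tried, at adjusted p-values of 0.00061 to 0.025.

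Markers of other crypt cells moved with both comparisons. In TKO crypts 4 of 6 goblet cell markers were lower than in WT crypts, against 2.8% of all genes, among them Muc2, the main gel-forming mucin of the gut, at -1.12. Of 5 Paneth cell markers 1 was lower, the secreted phospholipase Pla2g2a, at -5.51, which was also lower in TKO than in WT villi, at -4.84. Whether the fall of Pla2g2a reflects Paneth cells or the gene alone was not tested. In QKO crypts all 6 goblet cell markers, 2 of 5 Paneth cell, 3 of 9 stem cell and 4 of 8 T cell markers were lower, and all 3 pancreatic acinar markers measured were higher. Of all genes 3.06% were lower and 10.3% higher there. List means for goblet cells were 12.45 to 12.66 log2 in WT, 11.47 to 11.7 in TKO and 10.94 to 11.86 in QKO crypts, and for Paneth cells 13.65 to 13.96, 11.35 to 12.18 and 11.11 to 11.58. The Paneth cell means include Pla2g2a, at -6.17 in QKO crypts, so much of their fall may be that of this gene. Without the doubtful arrays 4 goblet cell markers were lower in each of the 2 genotypes, and Paneth cell counts were 1 and 2. Their part in the members' crypt differences was not tested.

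Probe sets of a gene differed in crypts. A second bright Hells probe set rose with the main one, by 0.65 ± 0.17 in TKO and 0.93 in QKO crypts. The second Uhrf1 probe set read 7.62, 8.41 and 7.76 in TKO crypts and 8.69, 8.36 and 8.78 in WT crypts, while the main one read 9.64, 10.32 and 9.56 against 9.73, 9.71 and 10.04, and neither difference was called. Dim Suz12 probe sets were called higher in TKO crypts, by 1.17 and 0.69, and in QKO crypts, by 1.08 and 0.88. There the main Suz12 probe set differed by 0.01 ± 0.18 and 0.23 ± 0.18. With the doubtful arrays left out, the second Hells probe set differed by 0.69 and 0.97, both called. The dim Suz12 probe sets then differed by 1.32 and 0.73 in TKO, the latter not called, and by 1.23 and 0.92 in QKO, both called. Of the 6 bright check probe sets, 2 had the sign of the main one in each of the TKO and QKO comparisons with WT crypts, and 2 and 3 without the doubtful arrays. Ezh2 and Asf1b have 1 probe set each, so their crypt differences have no such check.

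**Figure D3:**
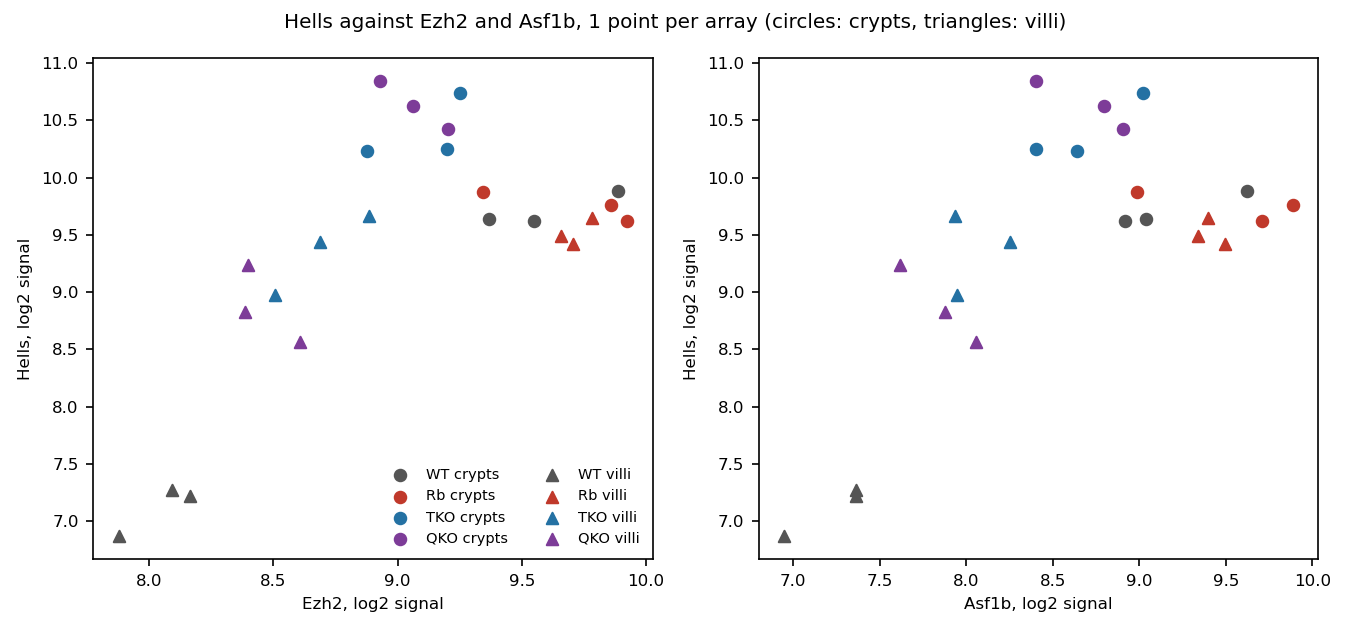
Hells (log2 signal, vertical axes) against Ezh2 on the left and Asf1b on the right (log2 signal, horizontal axes), 1 point per array, with circles for crypts, triangles for villi and colours for genotype. The 6 TKO and QKO crypt arrays stand above and to the left of the WT and Rb crypt arrays, at 10.24 to 10.84 for Hells and 8.88 to 9.25 for Ezh2.

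Because Hells and Ezh2 each separated these crypt arrays, their difference within an array must do so too, and it is given only for its size. The log2 value of Hells less that of Ezh2, whose zero has no meaning, ran from -0.31 to 0.53 on the 6 crypt arrays with the E2f genes and from 1.05 to 1.91 on the 6 without them. In villi it ran from -1.01 to -0.14 with them and from -0.04 to 0.84 without them. Hells less Asf1b did not overlap either, at -0.12 to 0.88 against 1.52 to 2.44 in crypts. These ranges show unequal change of the probe sets and not which of them moved. They follow the split of the poly-A controls, from which loss of the E2f genes cannot be told apart.

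QKO and Rb tissue, which both lack Rb, differ by the E2f genes and by that preparation split. In crypts Hells was higher in QKO by 0.88 ± 0.19 (adjusted p = 0.0027), against 13.4% of all genes higher, while Ezh2 at -0.64 ± 0.16 (adjusted p = 0.0081) and Asf1b at -0.83 ± 0.22 (adjusted p = 0.013) were lower, against 3.78% of all genes lower. Without both doubtful arrays the 3 differences were 0.94 ± 0.21, -0.83 ± 0.14 and -1.10 ± 0.19, all called. Ezh2 lost its call with sex as a covariate (-0.53, adjusted p = 0.13) and with only the groups compared (adjusted p = 0.077), and the QKO crypt arrays are male and the Rb crypt arrays female. Asf1b lost its call without Rb crypts 1 (-0.65), Rb crypts 3 (-0.74) or QKO crypts 1 (-0.68), and over all settings its adjusted p ran from 0.00094 to 0.081. In villi QKO fell short of Rb for 7 of the 8 members, against 8.02% of all genes, with a median of -0.72 against 0.08 for all genes. Asf1b differed by -1.56 ± 0.22 (2.95-fold, adjusted p = 4.8e-05), Ezh2 by -1.25 ± 0.16 (2.38-fold, adjusted p = 1.6e-05) and Dnmt1 by -1.07 ± 0.19. Eed at -0.73, Chaf1b at -0.71, Hells at -0.64 and Suz12 at -0.64 followed, and Uhrf1 at -0.55 ± 0.24 was not called (adjusted p = 0.11). These calls depend on the probe set. The second bright Hells probe set, at -0.22 ± 0.17, was not called, and the second Uhrf1 probe set, at -0.65 ± 0.22, was. No member overlapped between the 2 groups of villi, and the share of all genes without overlap was not counted. Hells lost its call without Rb villi 3 (-0.58) or QKO villi 3 (-0.49), and Suz12 without QKO villi 1 (-0.42). Hybridization controls averaged 11.23 to 11.45 in QKO villi and 10.28 to 10.35 in Rb villi, and the part of this step was not tested.

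Other cell types moved with that comparison. In QKO villi 4 of 8 T cell markers and 3 of 6 stroma markers were higher than in Rb villi, against 14.2% of all genes higher, among them Vim by 2.56 and Col3a1 by 3.49. List means were 9.29 to 10.03 log2 against 8.19 to 8.61 for T cells and 6.01 to 7.45 against 5.18 to 6.13 for stroma. Of 6 goblet cell markers 5 were lower, and 1 of 9 stem cell markers, Smoc2, against 8.02% of all genes lower. In crypts all 3 pancreatic acinar markers measured were higher in QKO than in Rb, with list means of 6.53 to 9.24 against 5.79 to 5.94, and 5 of 6 goblet cell and 2 of 8 T cell markers lower, each 4 without the doubtful arrays. Between these crypts 13.4% of all genes were higher and 3.78% lower. In TKO villi 2 of 9 stem cell markers, Cdca7 and Olfm4, were higher than in WT villi, against 6.21% of all genes, with a list mean of 6.93 to 7.67. There 4 of 6 goblet cell markers were lower, against 3.57% of all genes lower. The part of these cells in the members' differences was not tested.

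QKO and TKO tissue, on the same side of the preparation split, showed no called member. In crypts differences ran from -0.04 for Ezh2 to 0.29 ± 0.11 for Eed, with 1.61% of all genes called in either direction and 1 member, Eed, at an unadjusted p under 0.05. In villi they ran from -0.48 ± 0.19 for Hells to 0.07 ± 0.19 for Dnmt1, with 6.68% of all genes called and 1 member, Hells, at an unadjusted p under 0.05. Hells was called, at -0.68 and -0.66, when TKO villi 3 or QKO villi 1 was left out, and its adjusted p over all settings ran from 0.036 to 0.48. The effect of Rb loss with and without the E2f genes was compared directly in villi. The QKO minus TKO difference less the Rb minus WT difference was negative for all 8 members, against 6.52% of all genes, from -0.89 ± 0.16 for Eed to -2.88 ± 0.27 for Hells (adjusted p = 7e-07).

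Lists of 4 kinds of related genes and the Mcm helicase were set beside the members. Of all genes, 18.6% fell from crypts to villi in WT. Higher than in WT villi were 8.59% in Rb, 6.21% in TKO and 11.6% in QKO villi. From Rb to QKO villi 8.02% were lower. Against WT crypts, 2.8% were lower and 1.93% higher in TKO crypts, and 3.06% and 10.3% in QKO crypts. Of 13 measured genes of DNA methylation, 7 fell from crypts to villi in WT, including Cdca7, a partner of Hells, at -2.12 ± 0.22. In Rb villi 6 of the 13 were higher than in WT villi, led by Uhrf2, a relative of Uhrf1, at 1.0 ± 0.13, the repair glycosylase Mbd4 at 1.18 ± 0.18, and Cdca7 at 1.19 ± 0.22. Among the rest, the de novo methyltransferases Dnmt3a and Dnmt3b, at 0.23 ± 0.17 and 0.12 ± 0.21, were not called. Cdca7 alone was called in TKO villi, at 1.20 ± 0.22. In TKO crypts Uhrf2 at -0.50 ± 0.13 and Usp7, which stabilises Uhrf1 and Dnmt1, at -0.43 ± 0.11 were lower, but neither was called without the doubtful arrays (-0.42 and -0.39).

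Of 8 PRC2 partners, 2 fell and 2 rose from crypts to villi in WT, shares near the 18.6% and 18.8% of all genes that did. Rbbp4 and Rbbp7, the histone-binding subunits, came to -0.84 ± 0.12 and -1.54 ± 0.13, whereas Ezh1, the related enzyme of resting cells, and the accessory factor Phf1 rose by 0.58 ± 0.12 and 0.89 ± 0.16. In Rb villi 4 of the 8 were higher than in WT, with Rbbp4 at 1.14 ± 0.12, Rbbp7 at 1.19 ± 0.13 and Mtf2 at 0.64 ± 0.12, while Phf1 was lower at -0.65 ± 0.16, against 6.19% of all genes lower, and Ezh1, at -0.10 ± 0.12, was not called. In TKO villi Rbbp7 was higher by 0.94 ± 0.13 and Phf1 lower, at -0.51 ± 0.16.

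Of 18 measured histone chaperones, 13 fell from crypts to villi in WT, 13 were higher in Rb villi, 9 in TKO villi and 11 in QKO villi than in WT villi. In Rb villi Nap1l1, Nasp and Hat1, which carry or acetylate new histones, were higher by 1.91 ± 0.14, 1.56 ± 0.13 and 2.3 ± 0.20. In TKO villi they were higher by 1.78 ± 0.14, 1.35 ± 0.13 and 1.64 ± 0.20. Supt16, a subunit of the histone chaperone FACT, was lower in TKO crypts, at -1.15 ± 0.14, where Mms22l was higher at 0.65 ± 0.17. Supt16 was called without the doubtful arrays, at -1.12 ± 0.16, and Mms22l, at 0.68 ± 0.20, was not. Between QKO and Rb villi 3 chaperones were higher, a share near the 14.2% of all genes, and 6 lower, with Anp32b at -0.70 ± 0.13, Supt16 at -0.67 ± 0.14 and Supt6 at 0.64 ± 0.14.

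Of 16 other chromatin factors of the fork or of new chromatin, 13 fell from crypts to villi in WT and 10 were higher in Rb villi. Pcna, the sliding clamp that recruits Dnmt1 and chromatin assembly factor 1, was higher by 2.08 ± 0.17, the chromatin protein Hmgb2 by 2.15 ± 0.20, and the heterochromatin protein Cbx5 by 1.56 ± 0.18. TKO villi had 4 of them higher and QKO villi 1, and from Rb to QKO villi 11 of the 16 were lower, with Pcna at -1.74 ± 0.17, Hmgb2 at -1.77 ± 0.20 and Cbx5 at -1.41 ± 0.18. In TKO crypts Hmgb2 at -1.15 ± 0.20, Lmnb1, the nuclear lamina protein, at -0.64 ± 0.15 and Cbx5 at -0.69 ± 0.18 were lower than in WT crypts. Hmgb2 and Lmnb1 were lower in QKO crypts too. Without the doubtful arrays Hmgb2 alone of these was called, at -1.04 ± 0.23 in TKO and -1.19 ± 0.23 in QKO crypts, while Lmnb1 came to -0.55 and -0.45 and Cbx5 to -0.54 in TKO. The counts of genes that fell from crypts to villi in WT were the same without these arrays in all 4 lists.

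All 6 Mcm genes, which form the replicative helicase, were lower in WT villi and higher in Rb, TKO and QKO villi, with medians of 2.58, 2.06 and 1.81 above WT villi. The members' medians in those comparisons were 1.94, 1.07 and 0.81. In crypts Mcm2 was higher in TKO, by 0.67 ± 0.13, and 4 of the 6 were higher in QKO, or 1 and 5 without the doubtful arrays. Between QKO and Rb villi 4 of the 6 were lower, with Mcm6 at -1.20 ± 0.24 and Mcm2, at 0.05 ± 0.13, not called.

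**Figure D4:**
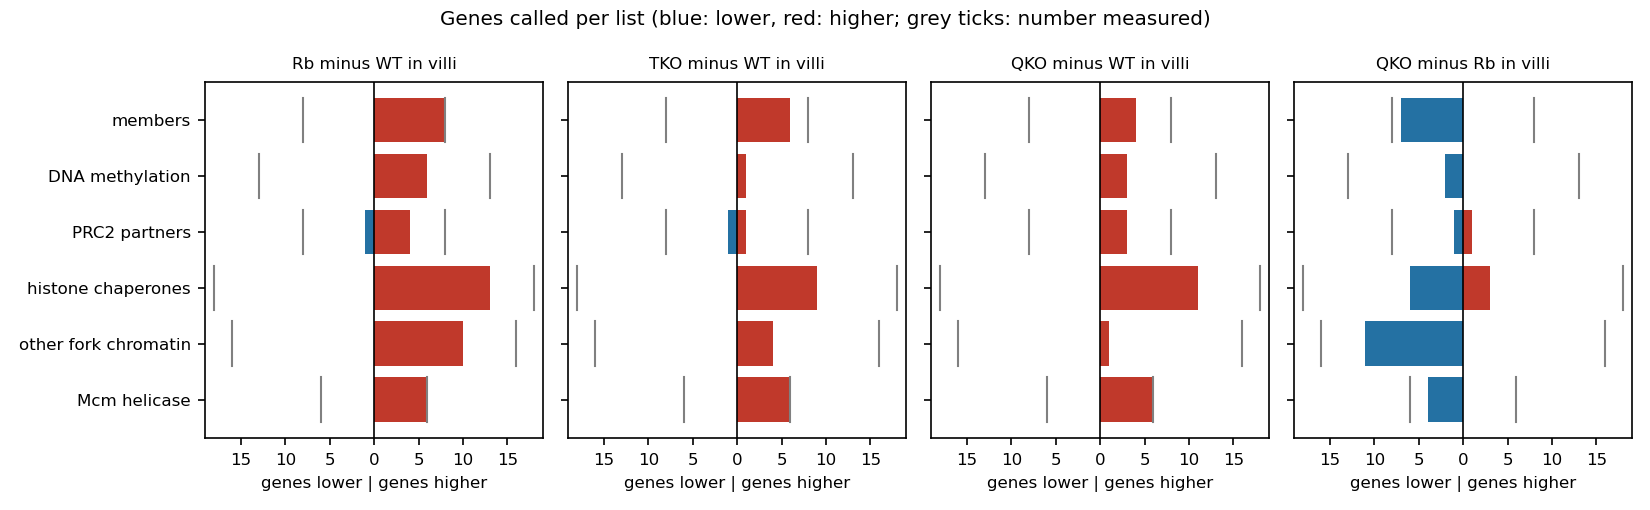
Number of genes called higher (red, to the right) or lower (blue, to the left) in 4 comparisons of villi, for the members and 5 gene lists, with grey ticks at the number measured. All 8 members and all 6 Mcm genes are red in the Rb panel, and 11 of 16 other fork chromatin factors are blue between QKO and Rb.

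Over the 24 arrays, which share the compartment difference, the members' levels were correlated as follows, given as a description. Uhrf1 followed Chaf1b (r = 0.970) and Hells (r = 0.961), and Ezh2 followed Asf1b (r = 0.975). Hells and Ezh2 correlated at 0.652 over the 24 arrays, at 0.762 over the 12 villus arrays and at -0.738 over the 12 crypt arrays. Hells and Asf1b likewise stood at -0.610 in crypts and 0.744 in villi. The genes most like each member were sought among the measured genes other than members, predicted genes and Riken clones. Rad51ap1, Mcm7 and Nasp were most like Uhrf1 (r = 0.982 to 0.976). Zwilch, Ints7 and Mcm5 were most like Hells (0.983 to 0.979), and Mcm6, Lig1 and Ercc6l most like Dnmt1 (0.975 to 0.969). Atad2 and Tmpo led for both Ezh2 (0.976 and 0.973) and Asf1b (0.981 and 0.976). Nasp, Prim2 and Topbp1 led for Chaf1b (0.985 to 0.973), Smarca5, Paxip1 and Slfn9 for Eed (0.963 to 0.955), and Arhgap11a, Septin11 and Mthfd2 for Suz12 (0.926 to 0.919). The mean of the members was most like Rrm1, Ercc6l and Smc2 (0.995 to 0.987).

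The order of the 8 groups differed by gene but always ended with WT villi. Rb villi were the highest group for Dnmt1, Ezh2 and Suz12, Rb crypts for Eed and Asf1b, and QKO crypts for Uhrf1, Hells and Chaf1b. Neighbours in these orders mostly lay within their spread: group SDs ran from 0.13 to 0.35 log2 for Dnmt1, whose 5 highest group means fall within 9.57 to 9.88, and from 0.06 to 0.32 for Ezh2. For Uhrf1 the 4 crypt groups could not be ordered, with means of 9.62 to 10.03 and SDs up to 0.42. Hells had a step between its Rb crypt mean, 9.75, and its TKO crypt mean, 10.41, and Ezh2 one between its WT crypt mean, 9.60, and its TKO crypt mean, 9.11.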

How the data were processed

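The authors deposited 1 table of log2 expression values per probe set for 24 arrays, ranging from 2.29 to 14.89; their summary, centring and normalization are not stated in those sources. Biotinylated cRNA came from 3 ug of Trizol-extracted RNA, per the labels' protocols. Groups came from the labels. Of 45101 probe sets, 34945 carried 1 gene in the platform annotation, 932 several, 9160 none here, and 64 were controls; names were updated through RefSeq gene identifiers for 34741. The brightest probe set per gene gave 18193 genes.

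One mean per group was fitted over all 24 arrays with limma 3.58.1 in R 4.3.3 (eBayes with an intensity trend), with p-values adjusted by Benjamini-Hochberg over all genes in each of 18 comparisons and called under 0.05. The fit was tested on simulated data. Members are all 9 listed genes; other genes are named from fixed lists, the 3 called genes with the smallest p in each, and likeness is Pearson r over the arrays. Further genes of these lists are given where a member's role turns on them. The members and lists were chosen with earlier results of these data known. The number of arrays limits the precision. Within groups arrays correlated at 0.978 to 0.995, with 0 identical pairs. Alternatives were normalization, probe set rule, filter, variance model, array weights, sex, the replicate block and single arrays left out. The replicate numbers pair crypts with villi in TKO (correlation of deviations 0.55 to 0.64) and QKO (0.25 to 0.55), by the values, but not in WT (0.00 to 0.13) or Rb (-0.24 to 0.06).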

Additional observations from a re-analysis of the deposited data

Results flagged for a closer look

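Effects of genotype that differed between compartments or between backgrounds, by the test of that difference in limma, were as follows, in log2. The Rb minus WT difference was larger in villi than in crypts by 2.36 for Dnmt1, 2.53 for Uhrf1, 2.36 for Hells, 1.56 for Ezh2, 0.96 for Suz12, 0.68 for Eed, 1.85 for Asf1b and 1.68 for Chaf1b. With both doubtful crypt arrays (WT 3 and Rb 2) left out, those of Suz12 and Eed were not called, nor were they with all probe sets averaged (0.70 and 0.37).

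The TKO minus WT difference was larger in villi by 1.35 for Dnmt1, 2.16 for Uhrf1, 1.55 for Hells, 1.14 for Ezh2, 1.33 for Asf1b and 1.26 for Chaf1b. The QKO minus WT difference was larger in villi by 1.46 for Dnmt1, 1.57 for Uhrf1, 0.95 for Ezh2 and 1.12 for Asf1b. The value for Hells in QKO, 0.84, was not called, but was with the replicate number as a block (adjusted p = 0.042, limma).

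Within villi, the difference that Rb loss made without the E2f genes, less the one it made with them, was -2.38 for Dnmt1, -2.72 for Uhrf1, -2.88 for Hells, -1.90 for Ezh2, -1.15 for Suz12, -0.89 for Eed, -2.38 for Asf1b and -2.04 for Chaf1b. With all probe sets averaged that of Eed was -0.34 and not called.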

How the results depend on the processing

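Of 144 member differences over 18 comparisons, 78 were called. None of the 78 changed sign under any alternative, and 55 kept their call under all of them, single arrays left out included. The replicate block gained 4 calls (Uhrf1 in Rb villi against Rb crypts, Asf1b in TKO villi against TKO crypts, Suz12 in TKO against WT villi, and Hells in the QKO difference in villi less that in crypts) and lost 0; it took the count in Rb villi against Rb crypts from 0 to 1.

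For Rb villi against Rb crypts the count of members called was 1 with dim genes removed or with the mean of probe sets, and 2 with array weights. For TKO against WT crypts the count of 1 became 0 with only the groups compared, with sex as a covariate or without WT crypts 3 and Rb crypts 2, and 3 with array weights. For QKO against WT crypts the count of 2 became 1 with only the groups compared, with sex as a covariate or without WT crypts 3 and Rb crypts 2. For QKO against Rb crypts the count of 3 became 1 with only the groups compared. The cause of these changes was not tested.

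Leaving out single arrays gave counts of 0 to 1 for Rb villi against Rb crypts, 1 to 6 for TKO villi against TKO crypts, 0 to 1 for TKO against WT crypts, 1 to 2 for QKO against WT crypts, 4 to 6 for QKO against WT villi, 0 to 1 for QKO against TKO villi, and 2 to 5 for the QKO difference in villi less that in crypts. With sex as a covariate Ezh2 between QKO and Rb crypts came to -0.53, not called, and with all probe sets averaged Chaf1b in QKO villi came to 0.37 against WT and -0.35 against Rb, not called. Array signal limits what the dim check probe sets show. Preparation, sex and genotype overlap, so loss of the E2f genes cannot be told apart from preparation.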
